A study of Homo sapiens with 192 samples.

Results

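The insulin-like growth factor (IGF) genes described here are the ligand gene IGF2, the receptor gene IGF1R, the 7 genes of the IGF binding protein series (IGFBP1 to IGFBP7) and H19, the noncoding RNA gene beside IGF2. These 10 genes were taken by their Ensembl identifiers from 58243 genes, and 9 of them passed the filter on low counts that left 19387 genes for testing. H19 and IGFBP3 were selected on measured values, the large rise from 2D to 3D of H19 in HT29 and of IGFBP3 in LS513. Those values are therefore given as a description with no test.

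RNA was sequenced from the human colorectal carcinoma lines HT29, LS174T, LS513 and HCT116 (4 in all), under 2D growth and under 3D growth. The labels name no drug and no altered gene in any group. Each group held 3 libraries, numbered 1 to 3 and listed in that order below, except that those of HT29 3D carry the numbers 1, 3 and 4. Thus there were 8 groups and 24 libraries, and the question was how the growth condition changes gene expression in each line. The cells were kept in DMEM, or in McCoy medium for HCT116, with fetal bovine serum, and each line stands for 1 tumor. HCT116 thus differed from the other lines in its medium, and line and medium cannot be told apart in comparisons with HCT116. Nothing in the labels says that the libraries of a group came from separate cultures, so the p-values measure the spread between these libraries, which may be technical.

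The smallest library held 18723942 counts, the largest 34277421 and the median one 30777613. Levels are given in CPM, a count scaled to the size of its library, and 3 counts in a library corresponded to between 0.0875 and 0.160 CPM before the scaling described next. All levels below are on the TMM scale, which corrects library sizes for differences in composition, given as mean ± SD of 3 libraries unless single libraries are listed. A gene was called when its adjusted p in the edgeR quasi-likelihood test, with Benjamini-Hochberg adjustment over all 19387 genes, was under 0.05. Where neither growth condition had more than 3 counts in all of its libraries, no fold change is given. The 8 markers of colorectal epithelium, such as EPCAM and VIL1, were above 3 counts throughout and summed to between 3065 and 18000 CPM. The fibroblast genes COL1A2, COL3A1, DCN and LUM and the leukocyte genes PTPRC and CD3E stayed at or under 3 counts in every library. The fibroblast list of 6 genes summed to between 0.341 and 22.1 CPM, the highest sums being in HCT116 through COL1A1 (14.1 ± 0.950 in 2D and 16.1 ± 5.95 in 3D). The leukocyte list of 5 genes summed to between 3.70 and 2674 CPM, the highest sums being in HT29 through the secreted enzyme gene LYZ (1373 ± 57.4 in 2D and 2550 ± 131 in 3D). CD68 of the same list, a lysosomal protein gene, was called higher in 3D in each line, from 5.98 to 13.5 CPM for HT29, 19.3 to 78.0 for LS513, 10.9 to 41.3 for HCT116 and 3.01 to 5.69 for LS174T (largest adjusted p = 0.0042, edgeR), and its part in the results below was not tested. The endothelial list of 4 genes summed to at most 2.38 CPM, the erythroid pair of genes to at most 6.29 CPM and the 3 hepatocyte genes to at most 0.431 CPM.

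IGF2 is a secreted growth factor that acts through the receptor tyrosine kinase IGF1R and the insulin receptor, while IGF2R, a receptor without kinase activity, takes it up for degradation. The IGF binding proteins hold the ligand in the extracellular space. They can keep it from its receptor or carry it there, and several also act on cells without the ligand. IGF2 and H19 are imprinted neighbours: in normal tissue IGF2 is expressed from the paternal and H19 from the maternal copy, and loss of this imprint is known in colorectal tumors. H19 is also the host of a microRNA, miR-675, whose hairpin lies within the H19 exons.

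The miR-675-5p sequence is shown because the counts of its precursor gene MIR675 follow those of H19 in these files. It is taken from RefSeq (GRCh38.p14, chr11:1996800-1996822, minus strand), with its seed, bases 2 to 8, in capitals.
hsa-miR-675-5p: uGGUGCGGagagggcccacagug

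The promoters of the 2 genes that were picked for their rises are shown to let the reader compare them. They are the bases before the annotated start in RefSeq (GRCh38.p14), both from the minus strand, with each match to 4 short words, on either strand, in capitals. The words are ACGTG or, with another first base, GCGTG, and, for the TATA box, TATATA or, with another base, TATAAA. IGFBP3 covers chr7:45921275-45921522 and H19 covers chr11:2001267-2001516. The gene spans given below come from another annotation and reach to base 45921874 for IGFBP3 and 2001470 for H19. The IGFBP3 window thus lies inside that span, as does most of the H19 window.
IGFBP3: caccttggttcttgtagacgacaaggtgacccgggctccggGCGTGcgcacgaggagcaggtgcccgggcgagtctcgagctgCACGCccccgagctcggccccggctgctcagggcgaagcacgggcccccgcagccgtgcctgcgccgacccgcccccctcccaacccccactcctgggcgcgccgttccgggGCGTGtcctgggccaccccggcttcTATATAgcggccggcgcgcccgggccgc
H19: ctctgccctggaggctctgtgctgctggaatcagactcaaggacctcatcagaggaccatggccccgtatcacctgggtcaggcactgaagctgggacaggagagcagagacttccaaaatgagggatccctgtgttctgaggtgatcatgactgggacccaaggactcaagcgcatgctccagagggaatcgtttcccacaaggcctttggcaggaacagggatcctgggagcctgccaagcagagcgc

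The former pair holds the core letters of the element bound by hypoxia-inducible factors, and no match overlapped another. The IGFBP3 window held 3 matches to GCGTG, 1 to TATATA and 32 CG pairs, and the H19 window held no match to any of the 4 words and 4 CG pairs. Over 35116 promoter windows of the RefSeq table, 32.2% held GCGTG, 18.5% held ACGTG, 43.2% held at least 1 of them, 3.73% held TATATA and 10.7% held TATAAA, and the median window had 11 CG pairs. Promoter entries were found for 7 of the 10 genes, and none was used for IGF2, IGFBP1 and IGFBP7. The IGF1R window, not shown, held 4 matches to GCGTG, 1 to ACGTG and 48 CG pairs, more than that of IGFBP3. An IGFBP2 window held 1 match to GCGTG, and the IGFBP4 window 1 to TATAAA. The remaining windows, of IGFBP2, IGFBP5 and IGFBP6, held no match. A match is a description of letters and not a binding site.

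IGF2 (ENSG00000167244, GRCh38 chr11:2129112-2149603, minus strand) was high in HT29, moderate in HCT116, and at or near 0 in LS513 and LS174T. In HT29 the 2D libraries had 26.7, 17.6 and 20.8 CPM and the 3D libraries 69.8, 37.0 and 41.6 CPM. All 3D libraries were above all 2D libraries, and IGF2 rose by 1.19 on the log2 scale (SE 0.23, adjusted p = 3.1e-04, edgeR). Such separation was common: 3D libraries were all above 2D for 27.3% (HT29), 23% (LS513), 22.8% (HCT116) and 20.9% (LS174T) of all genes tested. They were all below for 25.6%, 20%, 17.6% and 17.6%, in the same order. In these bulk libraries, more expressing cells and more RNA per cell cannot be told apart.

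In HCT116 the 2D libraries had 5.41, 6.15 and 8.66 CPM of IGF2 and the 3D libraries 11.1, 11.2 and 10.4 CPM. The groups did not overlap, and the rise was 0.69 on the log2 scale (SE 0.24, adjusted p = 0.035, edgeR). This call was lost without HCT116 2D replicate 1 (adjusted p = 0.166) or 2 (0.12), or without HCT116 3D replicate 1 (0.0867), 2 (0.0979) or 3 (0.0575). LS513 had 0 to 2 counts of IGF2 per library in either condition, and LS174T had 4 or 5 counts in 2D and 0 to 7 counts in 3D. The LS174T difference was -0.22 on the log2 scale (SE 0.79, adjusted p = 0.89, edgeR), so that no difference was detectable at this depth. The rise in HT29 and that in HCT116 differed by 0.50 on the log2 scale (SE 0.33, adjusted p = 0.46, edgeR). The growth effect on IGF2 over the 4 lines was not called different (adjusted p = 0.37, edgeR). With so few counts in LS513 and LS174T, that test cannot decide whether those lines differ from the others.

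Part of the IGF2 exons is shared with other annotated genes, so its counts are not fully its own. The readthrough gene INS-IGF2 covers 20.9% and the noncoding gene AC132217.1 covers 5.34% of the exonic bases of IGF2 on the same strand. The summed counts of INS-IGF2 were between 33.5% and 41.9% of those of IGF2 in the HT29 and HCT116 groups, and those of AC132217.1 between 19.7% and 26.1%. INS itself, the insulin gene, was listed at a mean of at most 0.0216 CPM in any group of libraries.

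H19 (ENSG00000130600, chr11:1995176-2001470, minus strand) lies 127.6 kb from IGF2 on the same strand. It reached the highest CPM of the 10 genes, and its level ran from 0.110 CPM in one 2D library of HT29 to 1123 CPM in one 3D library of LS174T. From highest to lowest, the mean levels were 1009 ± 99.5 CPM in LS174T 3D, 572 ± 31.0 in LS174T 2D, 78.3 ± 35.7 in LS513 2D, 41.7 ± 3.42 in LS513 3D, 9.18 ± 4.82 in HT29 3D, 1.24 ± 0.103 in HCT116 2D, 0.937 ± 0.214 in HCT116 3D and 0.163 ± 0.0491 in HT29 2D. Neighbours in this order overlapped only between the HCT116 groups.

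In HT29, the contrast for which H19 was picked, the 2D libraries had 5, 6 and 2 counts (0.171, 0.206 and 0.110 CPM) and the 3D libraries 486, 162 and 201 counts (14.7, 5.60 and 7.29 CPM). The log2 difference of 5.73 (SE 0.50) therefore rests on 13 counts over the 2D libraries. The highest 3D value was in replicate 1, which also had the highest IGF2 of that group. In LS174T the 2D libraries had 579, 538 and 599 CPM and the 3D libraries 1123, 944 and 959 CPM, and H19 rose by 0.82 on the log2 scale (SE 0.24, adjusted p = 0.018, edgeR). The size of this rise hardly moved when single libraries were left out (0.73 to 0.87), but its call was lost without LS174T 3D replicate 1 (adjusted p = 0.0617) or 2 (0.0582), or without LS174T 2D replicate 1 (0.0549) or 2 (0.0684).

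LS513 went the other way: its 2D libraries had 59.6, 55.8 and 119 CPM of H19 and its 3D libraries 44.8, 38.0 and 42.1 CPM. H19 fell by 0.91 on the log2 scale (SE 0.24, adjusted p = 0.0090, edgeR), with no overlap between the conditions. Replicate 3 of LS513 2D stood well above the others, and without it the difference was -0.47 (adjusted p = 0.123). The call was also lost without LS513 3D replicate 2 (adjusted p = 0.0563). In HCT116 the difference was -0.40 (SE 0.44, adjusted p = 0.54, edgeR), from 35 to 46 counts per 2D library and 23 to 36 per 3D library. Over LS513, HCT116 and LS174T, without the line for which H19 was picked, its growth effect differed (adjusted p = 0.0057, edgeR). That call was made for 8.38% of all genes tested. LS513 and LS174T differed by -1.73 on the log2 scale (SE 0.34, adjusted p = 0.0039, edgeR).

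MIR675 lies within H19 on the same strand, sharing 73 bases with it, and had 9037 counts over all libraries. Its summed counts were between 4.36% and 6.89% of those of H19 in the groups with more than 3 counts of H19 in every library. These are reads of poly(A) RNA over the shared exon and not a measure of the mature miR-675-5p shown above.

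**Figure D1:**
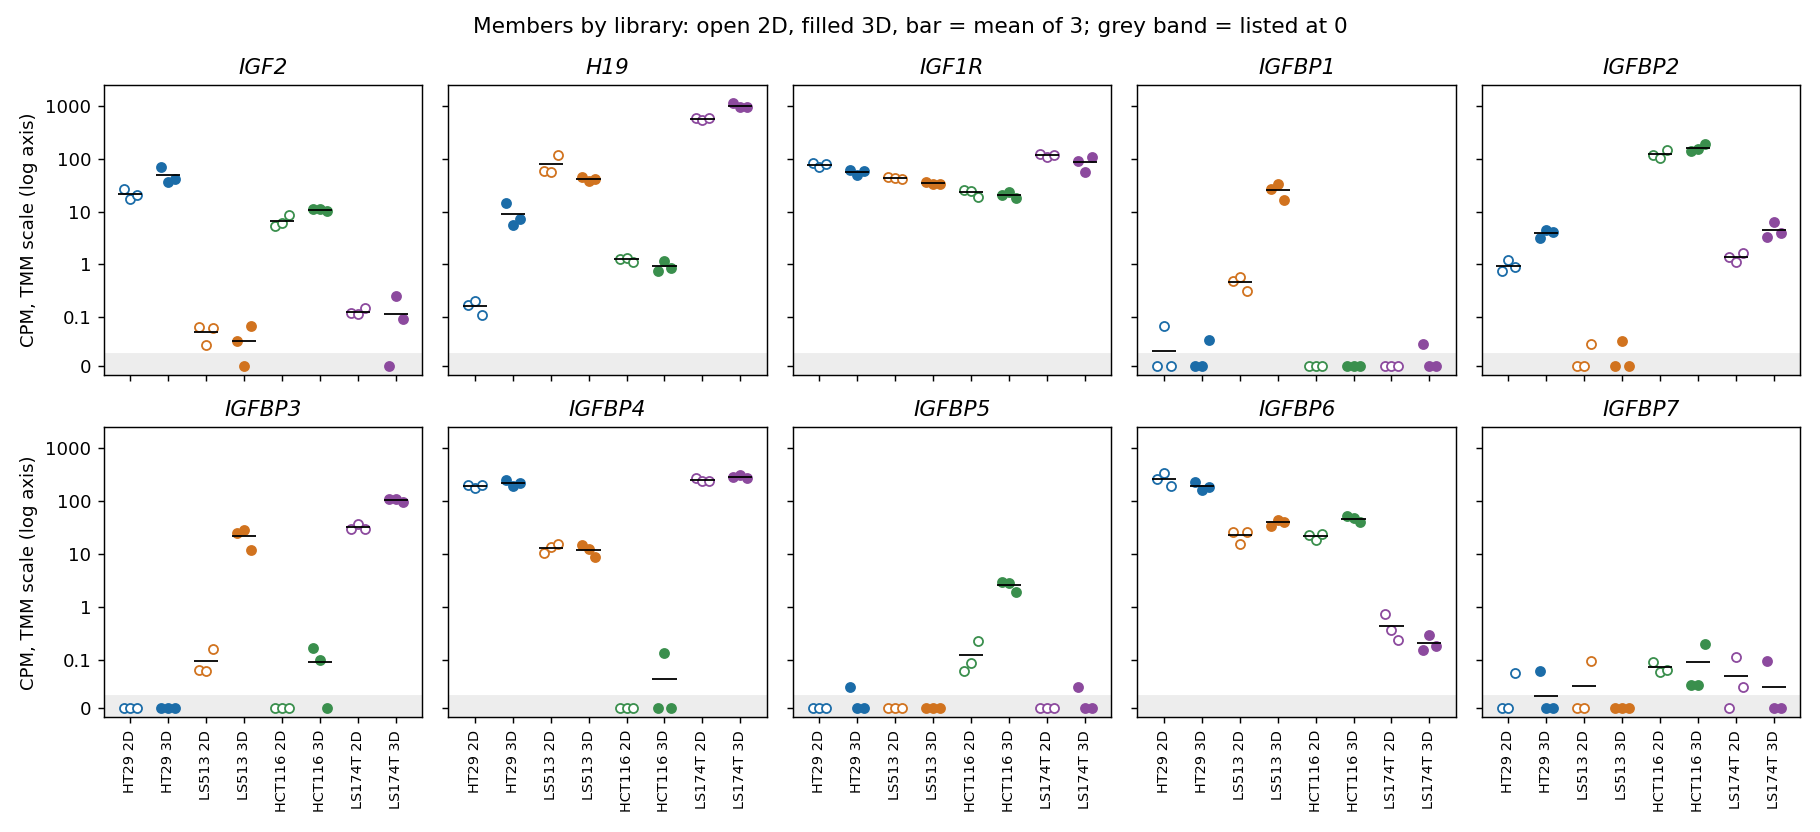
CPM on the TMM scale (log axis) of the 10 genes in each of 24 libraries, by line and growth condition, with open points for 2D, filled points for 3D, a bar at the mean of 3 libraries and a grey band for values listed at 0. H19 reaches 1123 CPM in LS174T, IGF1R stays between 18.3 and 123 CPM everywhere, and IGFBP1, IGFBP3 and IGFBP5 have means above 1 CPM in 1 or 2 lines and lie at or near 0 in the others.

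Set against each other per kilobase of exonic length, IGF2 and H19 divided the lines. H19 made up 99.97 ± 0.0130% of the sum of the pair in LS513 2D and 99.97 ± 0.0341% in LS513 3D, and 99.99% in both LS174T groups. In HCT116 its share was 31.3 ± 6.61% in 2D and 17.1 ± 2.99% in 3D. In HT29 it was 1.84 ± 0.798% in 2D and between 26.7% and 33.6% in 3D, although IGF2 itself also rose there. The 3D values of HT29 rest on the contrast for which H19 was picked.

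**Figure D2:**
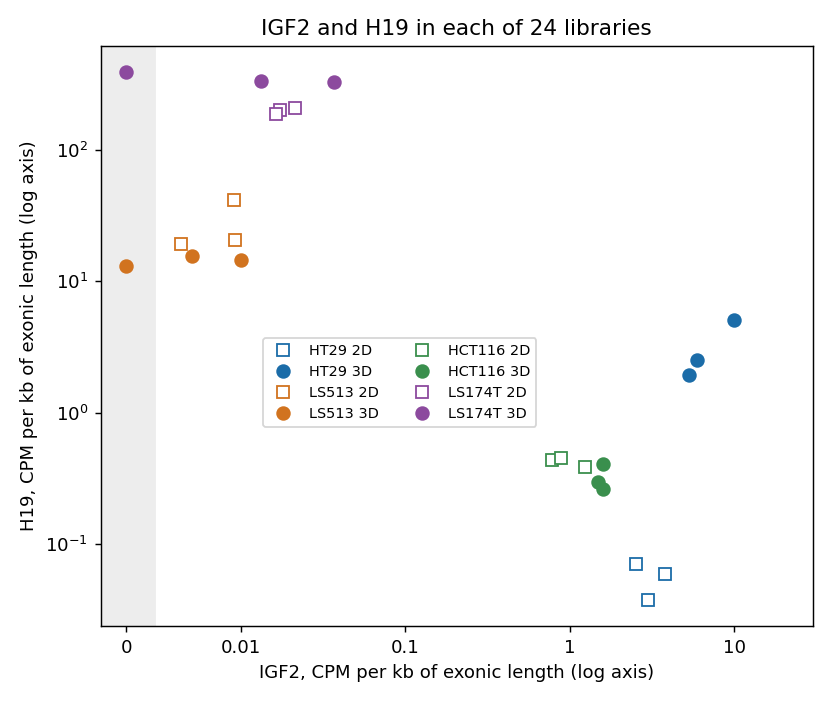
IGF2 against H19 in each of 24 libraries, both in CPM per kb of exonic length on log axes, with squares for 2D, circles for 3D and a grey band for IGF2 listed at 0. The LS513 and LS174T libraries lie at the upper left with H19 shares above 99.9%, the HCT116 libraries at the lower right, and the HT29 libraries move up and to the right from 2D to 3D.

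IGF1R (ENSG00000140443, chr15:98648539-98964530, plus strand), the signalling receptor, was expressed in every library, at 18.3 to 123 CPM. Mean levels in 2D were 118 ± 6.43 CPM in LS174T, 77.3 ± 6.64 in HT29, 42.7 ± 1.59 in LS513 and 23.3 ± 3.59 in HCT116. Each of the 6 pairs of lines differed (largest adjusted p = 0.0018, edgeR). Single pairs were called in 2D for 57.6% to 68.8% of all genes tested. In HT29 the 2D libraries had 82.2, 69.7 and 79.8 CPM and the 3D libraries 61.8, 48.9 and 58.0 CPM, so that all 3D libraries were lower. IGF1R fell by 0.46 on the log2 scale in HT29 (SE 0.16, adjusted p = 0.025, edgeR), a call lost without HT29 3D replicate 3 (adjusted p = 0.175) or 4 (0.0693), or without HT29 2D replicate 1 (0.136) or 3 (0.0926).

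In LS174T the 2D libraries had 123, 110.3 and 120 CPM of IGF1R and the 3D libraries 92.6, 56.5 and 108 CPM. The fall was 0.46 on the log2 scale (SE 0.16, adjusted p = 0.041, edgeR), but LS174T 3D replicate 2 was far below the others. Without that library the difference was -0.22 (adjusted p = 0.281), and with the 6 LS174T libraries alone the adjusted p was 0.187. The call was also lost without LS174T 3D replicate 1 (adjusted p = 0.0515), without LS174T 2D replicate 1 (0.112), 2 (0.0631) or 3 (0.104), and without any of 9 libraries of other lines (0.0507 to 0.0554). In LS513 the level was 42.7 ± 1.59 CPM in 2D and 34.4 ± 1.84 in 3D, with no overlap, a difference of -0.31 (SE 0.16, adjusted p = 0.17, edgeR) that was called in a fit of the 6 LS513 libraries alone (adjusted p = 0.013) and in the fit without LS174T 3D replicate 2 (0.0382). In HCT116 it was 20.6 ± 2.50 CPM in 3D, a difference of -0.17 (SE 0.16, adjusted p = 0.46, edgeR). The growth effect on IGF1R over the lines was not called different (adjusted p = 0.73).

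Among the binding proteins, IGFBP4 had means above 100 CPM in HT29 and LS174T, IGFBP6 in HT29 and IGFBP2 in HCT116. IGFBP1, IGFBP3 and IGFBP5 had a mean above 1 CPM in 1 or 2 lines. IGFBP7, a related protein that binds IGFs weakly, had 29 counts over all 24 libraries and at most 6 in any one, and did not pass the filter. On the opposite strand its exons meet those of POLR2B, which had up to 10129 counts per library.

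IGFBP1 (ENSG00000146678, chr7:45888357-45893668, plus strand), a binding protein best known as a secreted product of the liver, was found in LS513. The LS513 2D libraries had 15, 19 and 10 counts (0.483, 0.574 and 0.317 CPM) and the 3D libraries 769, 922 and 477 counts (27.1, 32.7 and 16.5 CPM). The log2 difference was 5.78 (SE 0.34), with no overlap between the conditions, and leaving out each library in turn gave between 5.55 and 6.01. IGFBP1 passed the filter on low counts only through the LS513 3D libraries, so this difference is given with no test. The other lines had 0 to 2 counts per library, and the hepatocyte marker list stayed at or below 0.431 CPM in sum.

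IGFBP3 (ENSG00000146674, chr7:45912245-45921874, minus strand), the main IGF carrier in blood, lies 18.58 kb from IGFBP1 on the opposite strand. In LS513, the contrast for which it was picked, the 2D libraries had 2, 2 and 5 counts and the 3D libraries 723, 793 and 347 counts (25.5, 28.2 and 12.0 CPM), a log2 difference of 7.80 (SE 0.43) that rests on 9 counts over the 2D libraries. The lowest IGFBP3 and the lowest IGFBP1 among the LS513 3D libraries were both in replicate 3. In LS174T, IGFBP3 was expressed in both conditions, at 29.7, 36.5 and 29.7 CPM in 2D and 108, 111 and 96.0 CPM in 3D. This rise was 1.71 on the log2 scale (SE 0.24, adjusted p = 8.8e-05, edgeR). LS174T is not the line for which IGFBP3 was picked. The genes were chosen with earlier results of these data known, however, so this p-value may not be independent of that choice. IGFBP1 was listed at 0 or 1 count in all LS174T libraries. HT29 had no count of IGFBP3 in any library, which allows up to 3 counts in each, and HCT116 had 0 counts in 2D and 0 to 5 in 3D.

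IGFBP2 (ENSG00000115457, chr2:216632828-216664436, plus strand), a binding protein with a preference for IGF2, was highest in HCT116, at 124 ± 21.1 CPM in 2D and 161 ± 26.8 in 3D. The HCT116 groups overlapped and the difference was 0.38 on the log2 scale (SE 0.17, adjusted p = 0.11, edgeR, or 0.0407 without LS174T 3D replicate 2). At far lower levels IGFBP2 rose in HT29, from 0.754, 1.20 and 0.877 CPM in 2D to 3.20, 4.50 and 4.03 CPM in 3D, by 2.03 on the log2 scale (SE 0.27, adjusted p = 4.4e-06, edgeR). It also rose in LS174T, from 1.38, 1.11 and 1.63 CPM to 3.34, 6.23 and 3.90 CPM, by 1.70 (SE 0.24, adjusted p = 2.6e-05, edgeR). LS513 had at most 1 count per library.

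The growth effect on IGFBP2 differed over the 4 lines (adjusted p = 0.0014, edgeR), a call made for 17.1% of all genes tested. HCT116 differed from HT29 (HT29 minus HCT116 1.65, SE 0.32, adjusted p = 0.0016) and from LS174T (HCT116 minus LS174T -1.32, SE 0.30, adjusted p = 0.0082). HT29 and LS174T were not told apart, either in the growth effect (0.33, SE 0.37, adjusted p = 0.72) or in the level (adjusted p = 0.14 in 2D and 0.44 in 3D).

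IGFBP5 (ENSG00000115461, chr2:216672105-216695525, minus strand), which binds to the extracellular matrix as well as to IGFs, lies 7.668 kb from IGFBP2 on the opposite strand. It was found above 3 counts in HCT116, where the 2D libraries had 2, 3 and 7 counts and the 3D libraries 89, 87 and 56 counts (2.96, 2.84 and 1.87 CPM). The log2 difference was 4.35 (SE 0.46) and rests on 12 counts over the 2D libraries. IGFBP5 passed the filter only through the HCT116 3D libraries, so it is given with no test as well. In HT29, LS513 and LS174T it had 0 or 1 count per library.

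IGFBP4 (ENSG00000141753, chr17:40443461-40457731, plus strand), an inhibitor of IGF action that is cleaved by the protease PAPPA, did not pass the test in the 3 lines where it could be tested. Its levels were 196 ± 14.4 CPM in 2D and 222 ± 25.7 in 3D for HT29, 255 ± 21.3 and 288 ± 19.9 for LS174T, and 13.1 ± 2.61 and 11.8 ± 3.04 for LS513. The log2 differences were 0.18 in HT29 (SE 0.16, adjusted p = 0.40), 0.18 in LS174T (SE 0.16, adjusted p = 0.46) and -0.15 in LS513 (SE 0.18, adjusted p = 0.61, edgeR). HCT116 had no count of IGFBP4 except for 4 counts in one 3D library. PAPPA itself was listed at no more than 0.0292 CPM as a group mean.

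IGFBP6 (ENSG00000167779, chr12:53097436-53102345, plus strand), the binding protein with the strongest preference for IGF2 over IGF1, rose in a pair of lines. In HCT116 the 2D libraries had 23.3, 18.8 and 23.97 CPM and the 3D libraries 52.0, 48.0 and 39.4 CPM, a rise of 1.08 on the log2 scale (SE 0.21, adjusted p = 4.6e-04, edgeR). In LS513 the 2D libraries had 25.7, 15.3 and 26.3 CPM and the 3D libraries 33.2, 44.8 and 41.1 CPM, a rise of 0.82 (SE 0.21, adjusted p = 0.0054, edgeR). In both lines all 3D libraries were above all 2D libraries. Without LS513 2D replicate 2, the lowest of its group, the adjusted p in LS513 was 0.0507.

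In HT29 the 2D libraries had 257, 344 and 198 CPM of IGFBP6 and the 3D libraries 226, 163 and 185 CPM. These overlapped, and the difference of -0.48 (SE 0.20, adjusted p = 0.060, edgeR) was not called. It was called when every gene with a count was tested (adjusted p = 0.0025), without HT29 2D replicate 3 (-0.62, adjusted p = 0.0243), the lowest of its group, and without LS513 2D replicate 2 (0.039). LS174T had 8 to 24 counts per library in 2D and 5 to 8 in 3D, with a difference of -1.08 (SE 0.59, adjusted p = 0.19, edgeR). At these low counts, that difference was also called when every gene with a count was tested (adjusted p = 0.0332, edgeR).

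The growth effect on IGFBP6 differed over the 4 lines (adjusted p = 6.6e-04, edgeR). HT29 differed from HCT116 by -1.56 on the log2 scale (SE 0.29, adjusted p = 8.4e-04) and from LS513 by -1.30 (SE 0.29, adjusted p = 0.0035). HCT116 differed from LS174T by 2.16 (SE 0.62, adjusted p = 0.045). LS513 and HCT116 were not told apart, either in the growth effect (-0.26, SE 0.29, adjusted p = 0.80) or in the level (adjusted p = 0.93 in 2D and 0.33 in 3D). All 6 pairs of lines were compared for each gene where the counts allowed, and each pair was adjusted over all genes tested. The growth effect was called different for 7.76% of all genes between HT29 and HCT116, 12.1% between HT29 and LS513, 6.65% between HT29 and LS174T, 4.34% between LS513 and HCT116, 3.62% between LS513 and LS174T and 4.75% between HCT116 and LS174T.

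**Figure D3:**
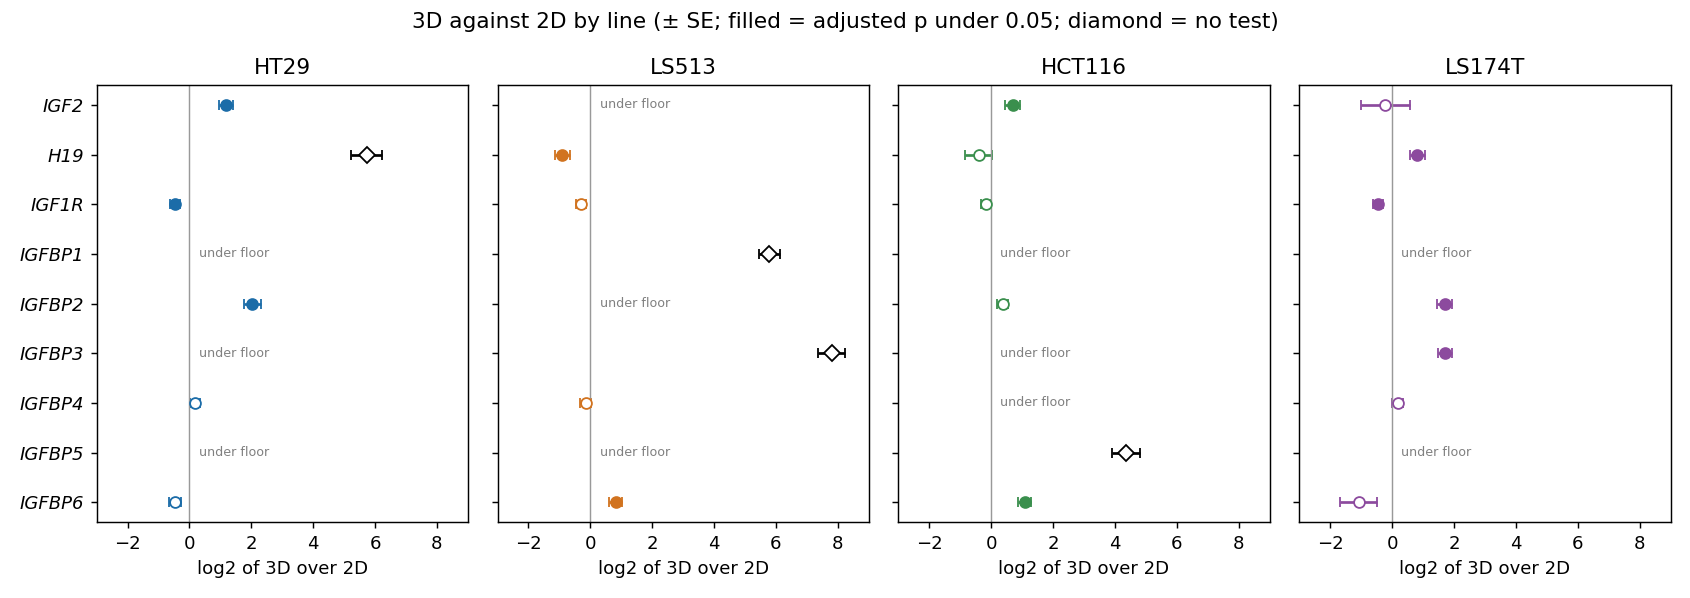
Log2 of 3D over 2D for 9 genes in each line, with bars of ± 1 SE, filled points for an adjusted p under 0.05 and black diamonds for values with no test, namely those by which H19 and IGFBP3 were picked and those of IGFBP1 and IGFBP5, which passed the filter only through that line's 3D libraries. IGFBP2 lies at 2.03 in HT29 and 1.70 in LS174T but at 0.38 in HCT116, IGFBP6 lies above 0 in LS513 and HCT116 and below 0 in HT29 and LS174T, and IGF1R lies below 0 in each line.

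Leaving out these values with no test, 3 of 5 genes with enough counts were called in HT29 (IGF2 and IGFBP2 higher, IGF1R lower in 3D), where 40.7% of all genes tested were called. That background was 21.1% higher and 19.6% lower in 3D. In LS513 it was 2 of 4 (IGFBP6 higher, H19 lower) against 23.6% of all genes, 13.7% higher and 9.9% lower. In HCT116 it was 2 of 5 (IGF2 and IGFBP6 higher) against 29.1%, 16.8% higher and 12.3% lower. In LS174T it was 4 of 7 (H19, IGFBP2 and IGFBP3 higher, IGF1R lower) against 22.2%, 13.1% higher and 9.15% lower. These counts are over the genes with enough counts and not over all 10. No gene of the 10 was called in the same direction in more than 2 lines, but the share of all genes that were was not counted. IGFBP1, IGFBP3, IGFBP5 and IGFBP7 had too few tests to be called in more than 2 lines. IGF1R was lower in 3D in each line, though called only in HT29 and LS174T.

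Levels differed between lines for IGF2, IGF1R, IGFBP2, IGFBP4 and IGFBP6, in 2D and in 3D, and 91.7% of all genes tested did so in each condition. The exceptions among pairs of lines were IGFBP2 between HT29 and LS174T and IGFBP6 between LS513 and HCT116, in both conditions, and IGF2 between LS513 and LS174T in 2D (adjusted p = 0.27, edgeR). In 3D, IGF2 was not tested between LS513 and LS174T, since neither had more than 3 counts in all of its libraries. In the H19 comparisons that did not use HT29, each pair of lines differed in both conditions. Over both conditions, single pairs of lines were called for 57.6% to 68.8% of all genes tested.

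Per kilobase of exonic length, the summed binding protein level was 287 ± 49.2 CPM per kb in HT29 2D and 244 ± 35.1 in HT29 3D, 124 ± 9.52 and 155 ± 10.9 in LS174T, 42.4 ± 6.31 and 68.7 ± 1.04 in HCT116, and 22.9 ± 4.64 and 55.1 ± 8.99 in LS513. The make-up of this sum is given as a description. In HT29, IGFBP6 made up 68.1 ± 7.21% in 2D and 58.1 ± 1.40% in 3D, with IGFBP4 nearly all of the rest. In LS174T, IGFBP4 made up 93.8 ± 0.864% in 2D and 84.5 ± 0.363% in 3D, and IGFBP3 went from 5.70 ± 0.925% to 14.8 ± 0.449%. In HCT116, IGFBP2 and IGFBP6 shared the sum, with IGFBP2 at 61.2 ± 2.08% in 2D and 49.0 ± 7.54% in 3D. In LS513, IGFBP1 went from 1.29 ± 0.621% to 27.5 ± 5.44% and IGFBP3 from 0.0871 ± 0.0370% to 8.52 ± 2.58%, while IGFBP4 went from 26.6 ± 7.35% to 9.77 ± 2.36%. With the longest transcript as the length, the most abundant gene in each group stayed the same, but the IGFBP3 share was 10.3 ± 1.58% in LS174T 2D, 24.7 ± 0.663% in LS174T 3D and 13.97 ± 4.14% in LS513 3D, where its mean was then above that of IGFBP4 (8.46 ± 2.00%).

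**Figure D4:**
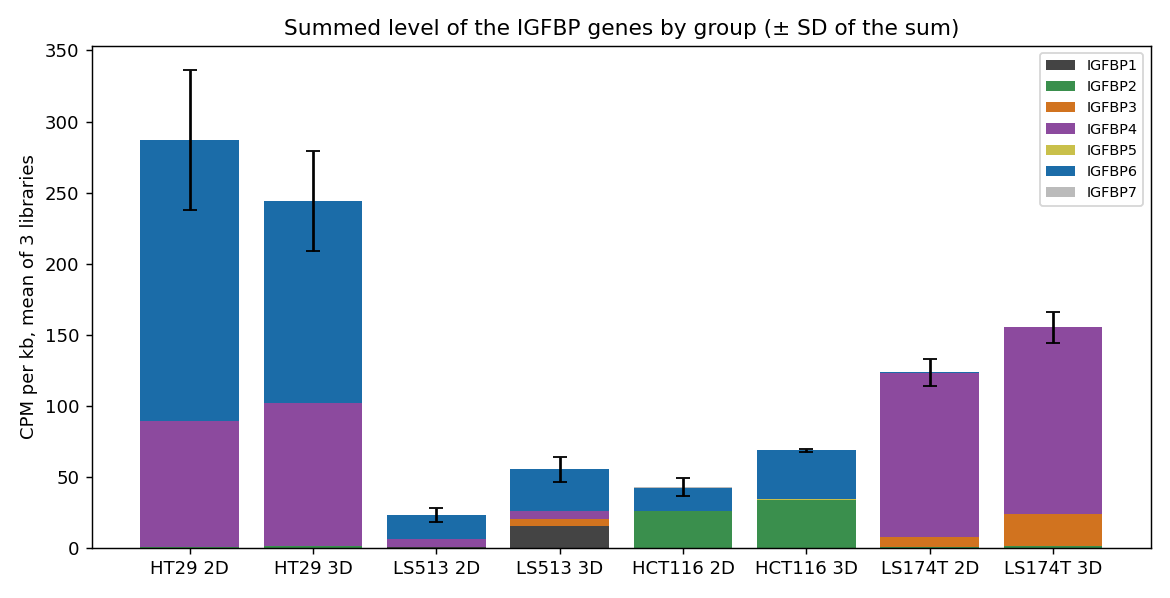
Summed level of the IGFBP genes in CPM per kb of exonic length, as stacked means of 3 libraries in each group, with bars of ± 1 SD of the sum. HT29 is highest at 287 and 244, LS513 2D lowest at 22.9, and IGFBP1 and IGFBP3 appear in the LS513 3D bar.

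Other genes of the IGF pathway were taken from a list of 20, of which 9 passed the filter. Of those with enough counts in a line, 2 of 7 rose and 2 fell for HT29 (40.7% of all genes tested were called), 2 of 7 rose for LS513 (23.6%), 5 of 8 for HCT116 (29.1%) and 3 of 8 for LS174T (22.2%), and none fell in the latter 3. Their median log2 difference was -0.16 for HT29, 0.21 for LS513, 0.46 for HCT116 and 0.20 for LS174T, beside 0.00018, 0, 0.011 and 0.016 over all genes. TMEM219, which encodes a cell surface receptor for IGFBP3, rose in each line, by 0.72 (HT29), 0.49 (LS513), 0.74 (HCT116) and 0.39 (LS174T) on the log2 scale (largest adjusted p = 0.033, edgeR). INSR, the insulin receptor gene, rose by 0.90 in HT29 (from 7.78 ± 1.95 to 14.4 ± 2.53 CPM, adjusted p = 3.2e-04) and by 0.59 in HCT116 (adjusted p = 0.0084, edgeR). STC2, a secreted inhibitor of PAPPA, rose by 0.92 in HCT116, to 123 ± 21.0 CPM, and by 0.99 in LS174T, to 124 ± 9.96 CPM (adjusted p = 1.5e-04 and 1.3e-04, edgeR). Its relative STC1 was at 0.00987 ± 0.0171 CPM in LS174T 2D and at 0.541 ± 0.187 in LS174T 3D and, having passed the filter only through the latter, is given with no test and left out of the count. IGF1, the other IGF ligand gene, was listed at a mean of at most 0.0289 CPM in any group.

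IGF2R, the receptor that removes IGF2, fell by 0.33 on the log2 scale in HT29 (from 113 ± 11.5 to 89.6 ± 11.4 CPM, adjusted p = 0.038, edgeR) and was not called in the other lines. Of 8 genes that act on the RNA of IGF2, H19 or their locus, 7 passed the filter. None rose in any line. Of those with enough counts in a line, 5 of 5 fell for HT29 (19.6% of all genes tested were called lower), 1 of 5 for LS513 (9.9%), 2 of 6 for HCT116 (12.3%) and 1 of 7 for LS174T (9.15%). The medians were -0.74, -0.24, -0.052 and -0.26, in the same order. HMGA2, a chromatin protein gene, fell by 1.71 in HT29 (from 14.1 ± 4.46 to 4.32 ± 0.636 CPM, adjusted p = 3.0e-06, edgeR). DICER1, which cuts microRNA precursors, fell by 1.04 there (adjusted p = 0.0031), and IGF2BP2 and IGF2BP3, which encode proteins that bind IGF2 messenger RNA, fell by 0.74 and 0.58 (adjusted p = 8.8e-05 and 0.0017, edgeR).

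Of 15 genes listed for the imprinted gene network, which is co-expressed in growing tissue, 11 passed the filter. Whether each of them is imprinted in these human lines was not tested. Of those with enough counts in a line, 1 of 8 rose and 3 fell for HT29, 2 of 9 rose and 1 fell for LS513, 2 of 10 rose for HCT116, and 3 of 9 rose and 1 fell for LS174T, beside the shares of all genes called of 40.7%, 23.6%, 29.1% and 22.2%. The medians were -0.22, 0.33, 0.21 and 0.20, in the same order. CDKN1C, a cell cycle inhibitor gene in the same imprinted region as IGF2 and H19, rose by 1.84 in HT29 (from 0.151 ± 0.0359 to 0.569 ± 0.106 CPM, SE 0.35, adjusted p = 2.5e-04, edgeR), by 1.45 in HCT116 and by 1.45 in LS174T. KCNQ1OT1, the noncoding RNA of that region, fell by 1.76 in HT29 (SE 0.32, adjusted p = 1.8e-04, edgeR), by 1.09 in LS513 and by 1.13 in LS174T. GATM rose by 1.73 in LS513 (adjusted p = 1.7e-05) and GNAS by 0.51 in LS513 (adjusted p = 8.3e-04, edgeR).

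Over the 24 libraries, the genes most like IGF2 in log2 CPM were INS-IGF2 (Pearson r = 0.993), AC132217.1 (0.993) and PXDC1 (0.989). The first of these shares exons with IGF2, and so does the next. For H19 they were DLL4 (0.986), MIR675 (0.983), which lies within H19, and TNFRSF11A (0.971). For IGFBP3 they were LINC02441 (0.973), BTNL3 (0.969) and OLFM4 (0.947). The libraries of a line share their genome and culture medium, so the 24 points are not independent, and no test was made.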

How the data were processed

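Per the labels and the study's methods, poly(A) RNA was made into strand-specific libraries and read as single reads. Adapters were trimmed with Trim Galore 0.4.1, and short and low-quality reads were removed. The reads were aligned with STAR (2.6.1b) to Ensembl 91, alignments matching more than once were dropped, and exon overlaps were counted with HTSeq-count 0.5.3. The labels name hg19 as the build, whereas 57980 of the 58243 deposited identifiers match GENCODE 29 (GRCh38), which was used for names and gene positions. The authors deposited raw counts per gene with no normalization. Reads on exons shared by several genes were counted for more than one of them, as the MIR675 counts show.

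The 191 count tables were summed over technical replicates, 8 per library except for 1 HT29 3D library with 7, whose other replicate was not analysed here. Totals and the value of 3 counts are given above, and such limits cover counting error only. Counts were fitted in R 4.3.3 with edgeR 4.0.16 (filterByExpr, TMM, robust quasi-likelihood, 1 coefficient for each of 8 groups), and p-values were adjusted by Benjamini-Hochberg over 19387 genes. CPM per kb uses all exonic bases. A gene that passed the filter only through 1 group was given no test in that group. The test was first tried on simulated counts with known changes.

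Alternatives were DESeq2 1.42.0, its size factors, every gene with a count, fold thresholds, the libraries of 1 line alone, a technical replicate left out, each library left out and a replicate block. Genes named outside the 10 are those sharing exons with them, at most 4 per list by the size of a called change, and the 3 most correlated genes (log2 CPM, prior count 2). IGF1, INS, PAPPA, IGF2R, COL1A1, CD68 and LYZ were named after their values were seen. The genes and the lists were chosen with earlier results of these data known.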

Additional observations from a re-analysis of the deposited data

Results flagged for a closer look

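The effect of 3D growth differed between lines, by a test of the difference itself, for 3 genes. For IGFBP6 the adjusted p over the 4 lines was 0.000661, for IGFBP2 it was 0.00141, and for H19, tested over LS513, HCT116 and LS174T, it was 0.00566 (edgeR). The same tests called 17.1% of all genes over the 4 lines and 8.38% over the 3 lines. The difference was called in 29 of 29 alternatives for IGFBP6 (largest adjusted p = 0.018), in 29 of 29 for IGFBP2 (0.0132) and in 28 of 28 for H19 (0.0209). Groups of 3 libraries were not tested for single outlying samples.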

How the results depend on the processing

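With a fold threshold of log2 under -0.5 or over 1.5, genes called went from 7887 to 3371 in HT29, 4571 to 1557 in LS513, 5637 to 1800 in HCT116 and 4305 to 1407 in LS174T. The 10 genes' calls went to 1 in HT29 and 2 in LS174T. In HCT116 only IGFBP5 passed this threshold, with a difference that was given no test above. With log2 under -1 or over 1 the gene counts were 2403, 1175, 1401 and 1011 in the same order, with 2 of the 10 genes called in LS174T. In LS513 only IGFBP1 passed, again with a difference given no test above. These thresholds add a condition to each call. A fit of the LS174T libraries alone called 1648 genes, with fewer libraries to estimate the spread. Testing every gene with a count called the growth effect between lines for 4 genes (IGFBP1 and IGFBP4 beside IGFBP2 and IGFBP6), and the cause was not tested. IGFBP1 had at most 2 counts per library outside LS513, and its rise in LS513 was given no test above. IGFBP4 had no count in HCT116 2D and at most 4 in an HCT116 3D library. These calls for IGFBP1 and IGFBP4 are therefore not used.

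Leaving out 1 library at a time gave 6372 to 8751 called genes in HT29, 2784 to 5643 in LS513, 3747 to 6836 in HCT116 and 2083 to 6038 in LS174T, and 2 to 4 of the 10 genes in each line. The counts moved by over 1.5 times without LS513 3D replicate 2 (2784), LS513 2D replicate 2 (3030), HCT116 2D replicate 1 (3747), LS174T 3D replicate 2 (2083) and LS174T 2D replicates 1 (2709), 2 (2781) and 3 (2616). In LS174T, 2 of the 10 genes were called without 3D replicate 1 or 2 or 2D replicate 1 or 2, which left out H19 and IGF1R. The sign turned for IGF2 in LS174T without 3D replicate 1 (0.39, with a range of -1.38 to 0.39 over the libraries left out) and for IGFBP4 in LS513 without 3D replicate 3 (0.034, with a range of -0.34 to 0.034), neither of which was called.

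Libraries with the same replicate number did not deviate together (correlations of -0.146 to 0.0938 in 11 pairs). The own number was best in 3 of 11. Each deviation was taken within a group of only 3 libraries, so these correlations cannot decide if the numbers pair the samples. With the replicate block, 5415, 3635, 4614 and 3273 genes were called in HT29, LS513, HCT116 and LS174T, with 3, 3, 3 and 4 of the 10 genes. The counts of the 10 genes in this part include IGFBP1 in LS513 and IGFBP5 in HCT116, which were given no test above. The block could not be fitted to levels between lines, because the numbers are nested in the lines.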

Other observations

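IGFBP3 is a known target of p53 and IGFBP1 of hypoxia-inducible factors, so the targets of both were counted beside them, and any part of either in the values above was not tested. Of 10 hypoxia targets, all of which passed the filter, those with enough counts in a line rose in 7 of 9 cases for HT29 (21.1% of all genes tested were called higher), 9 of 9 for LS513 (13.7%), 10 of 10 for HCT116 (16.8%) and 10 of 10 for LS174T (13.1%), and none fell. The medians were 1.38, 1.62, 1.61 and 2.26 on the log2 scale. NDRG1 went from 14.6 CPM in 2D to 295 in 3D for HT29, from 40.9 to 400.2 for LS513, from 43.95 to 901 for HCT116 and from 33.96 to 637 for LS174T. CA9, the cell surface carbonic anhydrase gene, rose by 4.00 in LS513 (SE 0.37, adjusted p = 1.5e-07), ANKRD37 by 4.47 in HCT116 (adjusted p = 9.5e-10) and EGLN3 by 2.597 in LS174T (adjusted p = 1.1e-07, edgeR).

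Of 10 p53 targets, 5 rose and 2 fell for HT29, 5 rose for LS513, and 4 rose and 1 fell for each of the other lines, beside the shares of all genes called higher and lower of 21.1% and 19.6% (HT29), 13.7% and 9.9% (LS513), 16.8% and 12.3% (HCT116) and 13.1% and 9.15% (LS174T). The medians were 0.45, 0.40, 0.26 and 0.27. CDKN1A, the cell cycle inhibitor p21, rose by 2.16 in HT29 (from 5.72 to 25.7 CPM, adjusted p = 6.4e-06), GDF15 by 2.47 (adjusted p = 7.6e-08) and BBC3 by 1.75 (adjusted p = 7.1e-08) in HT29, and SESN2 by 2.15 in LS513 (adjusted p = 6.2e-09, edgeR). MDM2, which encodes the ligase that removes p53, fell by 0.50 in HT29, 0.54 in HCT116 and 0.49 in LS174T (largest adjusted p = 0.038), and FAS fell by 0.46 in HT29 (adjusted p = 0.030, edgeR). MDM2 and FAS were named after their values were seen.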
